A study of Mus musculus with 20 samples.

Results

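Total liver RNA of mice given a locked nucleic acid (LNA) antisense oligonucleotide against SNORA73 was compared with that of mice given an LNA against GFP, which has no target in these animals. All 10 total RNA libraries of the 20 libraries in the series entered, and the other 10 hold polysome RNA of the same livers. The 5 GFP LNA livers came from mice 1, 2, 3, 8 and 9 and the 5 SNORA73 LNA livers, called treated here, from mice 4, 6, 10, 11 and 12, each library being 1 mouse. All were chow-fed male C57BL/6J mice, aged 8 weeks by the series' description, given 3 intraperitoneal injections of 3 mg/kg every other day, although the study's methods give an older age for livers used in polysome work. In the sample names the target is spelled snoRA37, and the libraries so named were read as the SNORA73 group because the study describes no other LNA in mice besides the control. The study's methods for polysome work also give a tail vein injection of cycloheximide 5 minutes before death. Total RNA was taken from liver tissue lysed in polysome buffer, without sorting of cells. Fewer cells of a type and less RNA per cell therefore cannot be told apart.

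SNORA73A and SNORA73B are box H/ACA small nucleolar RNAs (snoRNAs) released from introns of Snhg3, a noncoding host transcript. Box H/ACA snoRNAs usually guide the conversion of uridine to pseudouridine in ribosomal RNA, and a few take part in cutting the ribosomal precursor. The liver makes most plasma proteins, clears drugs, conjugates bile acids and disposes of nitrogen, and its hepatocytes lie along capillaries lined by sinusoidal endothelial cells.

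The oligonucleotides are shown because they define the 2 groups. Capitals mark LNA bases, 5 at each end of 20, around 10 DNA bases. The labels do not say which SNORA73 LNA the sequenced mice were given, and the study's text names the second for its in vivo work after the initial knockdown and redox measurements.
SNORA73 LNA 1: AAGTCgtaggaatatGCAGG
SNORA73 LNA 2: GACTCtgagaagtcgTAGGA
GFP LNA: TCACCttcaccctctCCACT
The first 11 bases of LNA 1 are the last 11 of LNA 2, so both oligonucleotides together pair with 1 stretch of 29 bases, in which capitals mark the shared 11.
Joint target, as DNA: cctgcatatTCCTACGACTTctcagagtc
In RefSeq's GRCm38.p6 annotation Snora73b lies at chromosome 4, 132352322 to 132352526, and Snora73a at chromosome 4, 132352775 to 132352979, both within Snhg3 (132351933 to 132353686). Polyadenylated RNA was sequenced, and no library held more than 1 count of Snora73a or 4 of Snora73b, so the knockdown could not be read here. The host Snhg3 had 4.54 ± 0.493 CPM (counts scaled to a common library size; SD, n = 5) in controls and 4.86 ± 1.54 in treated livers, a log2 fold change of 0.10 (edgeR adjusted p = 0.923), and −0.10 without mice 9 and 10. The neighbouring gene Rcc1, a chromatin-bound exchange factor for Ran, stood at a log2 fold change of −0.02 (edgeR adjusted p = 0.991).

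Library totals were 24098067 to 42023390 counts with GFP LNA (median 31996106) and 20005389 to 29887649 with SNORA73 LNA (median 22543046). SNORA73 LNA mouse 10 stood apart from the other 9 livers on the first principal component, at 56.1 against −23.8 to 16.5. Sample quality weights were lowest for mouse 10 (0.423) and mouse 9 (0.535), and results are given with and without these 2 mice. The study left out 1 liver per group because it failed to cluster, and leaving out such livers favours a separation of the groups. Normalization factors by trimmed mean of M values (TMM) were 1.03 to 1.07 with GFP LNA and 0.882 to 0.998 with SNORA73 LNA, without overlap. Scaling by library totals alone moved the all-gene median of the log2 fold change from 0.01 to −0.14.

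A set of 4 transcripts rose with SNORA73 LNA, by the criteria of a false discovery rate (FDR) under 0.05 and a log2 fold change no smaller than 0.5. They were Stab2, a scavenger receptor of sinusoidal endothelium that takes up hyaluronan, Virma, a subunit of the complex that writes m6A on RNA, and the pseudogenes Gm5641 and Gm15387. These 4 are 0.0303% of the 13195 genes tested, and 0 genes (0.0%) fell by edgeR. Of the 4, Gm15387 passed the expression filter only through the SNORA73 LNA libraries, so its call carries no weight. Only Gm5641 stayed under the FDR threshold with any 1 mouse left out. By limma-voom 5 genes were higher and 0 lower, and by DESeq2 36 were higher and 21 lower. Without mice 9 and 10 edgeR called 72 higher (0.553%) and 21 lower (0.161% of 13017), and all 4 genes were among them. At an unadjusted p under 0.05, 654 genes (4.96%) were higher and 487 (3.69%) lower over the 10 mice.

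Stab2 (ENSMUSG00000035459, chromosome 10, 86841194 to 87008038) had 5.39, 5.47, 5.97, 4.42 and 8.03 CPM in GFP LNA mice 1, 2, 3, 8 and 9, and 12.2, 14.1, 11.02, 10.2 and 13.6 CPM in SNORA73 LNA mice 4, 6, 10, 11 and 12. The groups did not overlap, and mouse 9 was the highest control. The log2 fold change was 1.06 ± 0.15 (SE, edgeR adjusted p = 0.0497). With 1 mouse left out the adjusted p passed only without mouse 9 (0.00304), and it reached 0.186 without mouse 1. It was 0.103 by library totals and 0.0518 with a CPM above 1 required in every library.

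Virma (ENSMUSG00000040720, chromosome 4, 11485958 to 11551143) had 7.58, 8.31, 8.53, 9.28 and 11.1 CPM in the controls and 15.5, 14.4, 17.1, 17.1 and 14.5 CPM in the treated livers, in the same order of mice. Every SNORA73 LNA liver lay above every control. The log2 fold change was 0.81 ± 0.11 (SE, edgeR adjusted p = 0.0414), and with 1 mouse left out the adjusted p passed only without mouse 9 (0.00304) and reached 0.132 without mouse 3. It was 0.103 by library totals. Of the other genes for m6A methylation, Rbm15b, an adaptor of the same writer complex, stood at a log2 fold change of 0.32 (edgeR adjusted p = 0.357), and the 20 genes of that list that were tested had a median of 0.04 against 0.01 for all genes.

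Gm5641 (ENSMUSG00000069014, chromosome 3, 54481415 to 54482925) had 60.8, 54.6, 59.1, 70.2 and 71.3 CPM in the controls and 118, 122, 125, 117 and 120.1 CPM in the treated livers. Its groups lay far apart relative to their spread, and the log2 fold change was 0.93 ± 0.09 (SE, edgeR adjusted p = 0.00446), and it stayed under an adjusted p of 0.05 with any 1 mouse left out. Gm15387 (ENSMUSG00000082585, chromosome 15, 74093154 to 74094473) was at 0 counts in all 5 GFP LNA libraries and 50 to 278 counts in the SNORA73 LNA libraries. Against a floor of 3 counts in the smallest GFP LNA library, 0.121 CPM, its mean of 7.99 CPM was at least 65.8-fold higher (edgeR adjusted p = 0.0375). Gm15387 passed the expression filter only through the SNORA73 LNA libraries, so no weight is put on that p-value. With 1 mouse left out the adjusted p of Gm15387 ran from 0.00181 to 0.130, passing only without mouse 9 or mouse 12. Reads of pseudogenes can be shared with near-identical copies, so both values are uncertain.

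In polysome RNA of the same 10 livers, tested apart, the log2 fold change was 1.01 for Stab2 (edgeR adjusted p = 0.0857), 1.39 for Virma (0.0649), 0.70 for Gm5641 (0.178) and 0.75 for Gm15387 (0.368). None of these 4 passed the threshold there. For Gm15387 the difference between groups was far smaller there than in total RNA, and the cause was not tested.

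**Figure D1:**
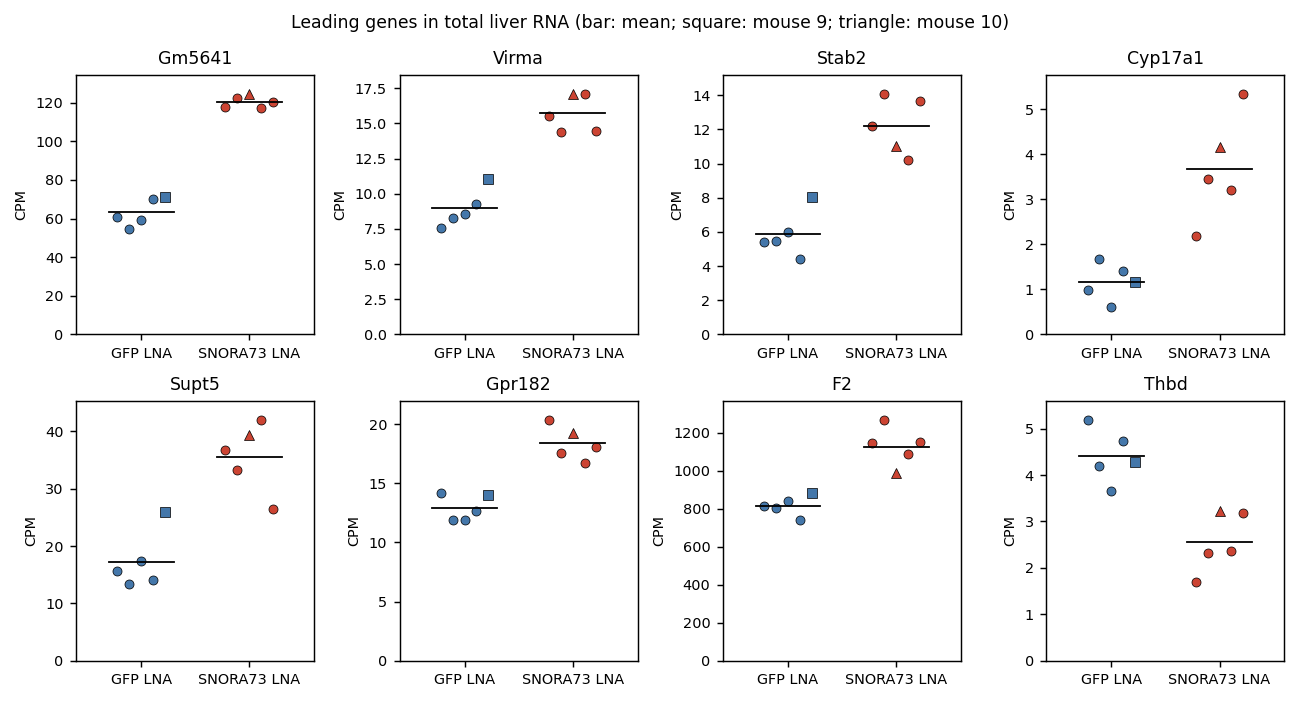
CPM in total liver RNA for 8 genes, 1 point per mouse, with GFP LNA in blue and SNORA73 LNA in red, the bar being the group mean of 5 mice. The groups do not overlap in any of the 8 panels, and mouse 9 (square) is the highest control for Gm5641, Virma, Stab2, Supt5 and F2, at 8.03 CPM for Stab2.

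Further genes that did not pass the threshold had groups without overlap, as 145 genes higher (1.1%) and 93 lower (0.705%) of all tested did. Obp2a, a lipocalin, had 0.515 ± 0.185 CPM in controls and 1.89 ± 0.452 in treated livers, a log2 fold change of 1.86 (edgeR adjusted p = 0.0518, and 0.0224 without mice 9 and 10). Cyp17a1, the 17-alpha-hydroxylase of steroid synthesis, had 0.977, 1.69, 0.606, 1.42 and 1.16 CPM against 2.18, 3.46, 4.18, 3.21 and 5.35 CPM, a log2 fold change of 1.66 (edgeR adjusted p = 0.171, and 0.0548 without mice 9 and 10). All 5 SNORA73 LNA livers exceeded the highest control, at levels near the filter.

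Supt5, a transcription elongation factor, had 15.6, 13.3, 17.5, 14.1 and 25.9 CPM against 36.8, 33.2, 39.3, 41.97 and 26.5 CPM, a log2 fold change of 1.04 (edgeR adjusted p = 0.171, and 0.00433 without mice 9 and 10). Mouse 9, a control, lay just under mouse 12. Herc2, a large ubiquitin ligase with a part in DNA repair, showed the same control more clearly, at 16.4 CPM in mouse 9 against 3.91 to 5.73 in the other 4 controls and 18.5 to 25.4 with SNORA73 LNA (log2 fold change 1.54, edgeR adjusted p = 0.245). Without mice 9 and 10, and so without that control, Herc2 stood at 2.12 (edgeR adjusted p = 0.000131). Among genes with lower values, Alms1, a protein of the centrosome and cilium base, had 1.79 ± 0.23 CPM in controls and 0.879 ± 0.158 in treated livers (log2 fold change −1.01, edgeR adjusted p = 0.184, and 0.0390 without mice 9 and 10). Ly6a, a surface protein known as Sca-1, stood at a log2 fold change of −0.75 (adjusted p = 0.235, and 0.0246 without mice 9 and 10).

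The gene lists that follow cover 54 functions and cell types, with 1604 distinct genes tested. Of these lists 29 had a median log2 fold change above 0. Lists are described by counts at an unadjusted p under 0.05, beside the 4.96% higher and 3.69% lower of all genes, and by the members above 0, beside 51.7% of all genes. Without mice 9 and 10 these shares of all genes were 7.04%, 5.05% and 51.3%. Library totals lowered the list medians by about the shift of all genes, so that small medians above 0 after TMM, such as those of complement, coagulation, urea cycle and periportal genes, were at or below 0 by totals.

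**Figure D2:**
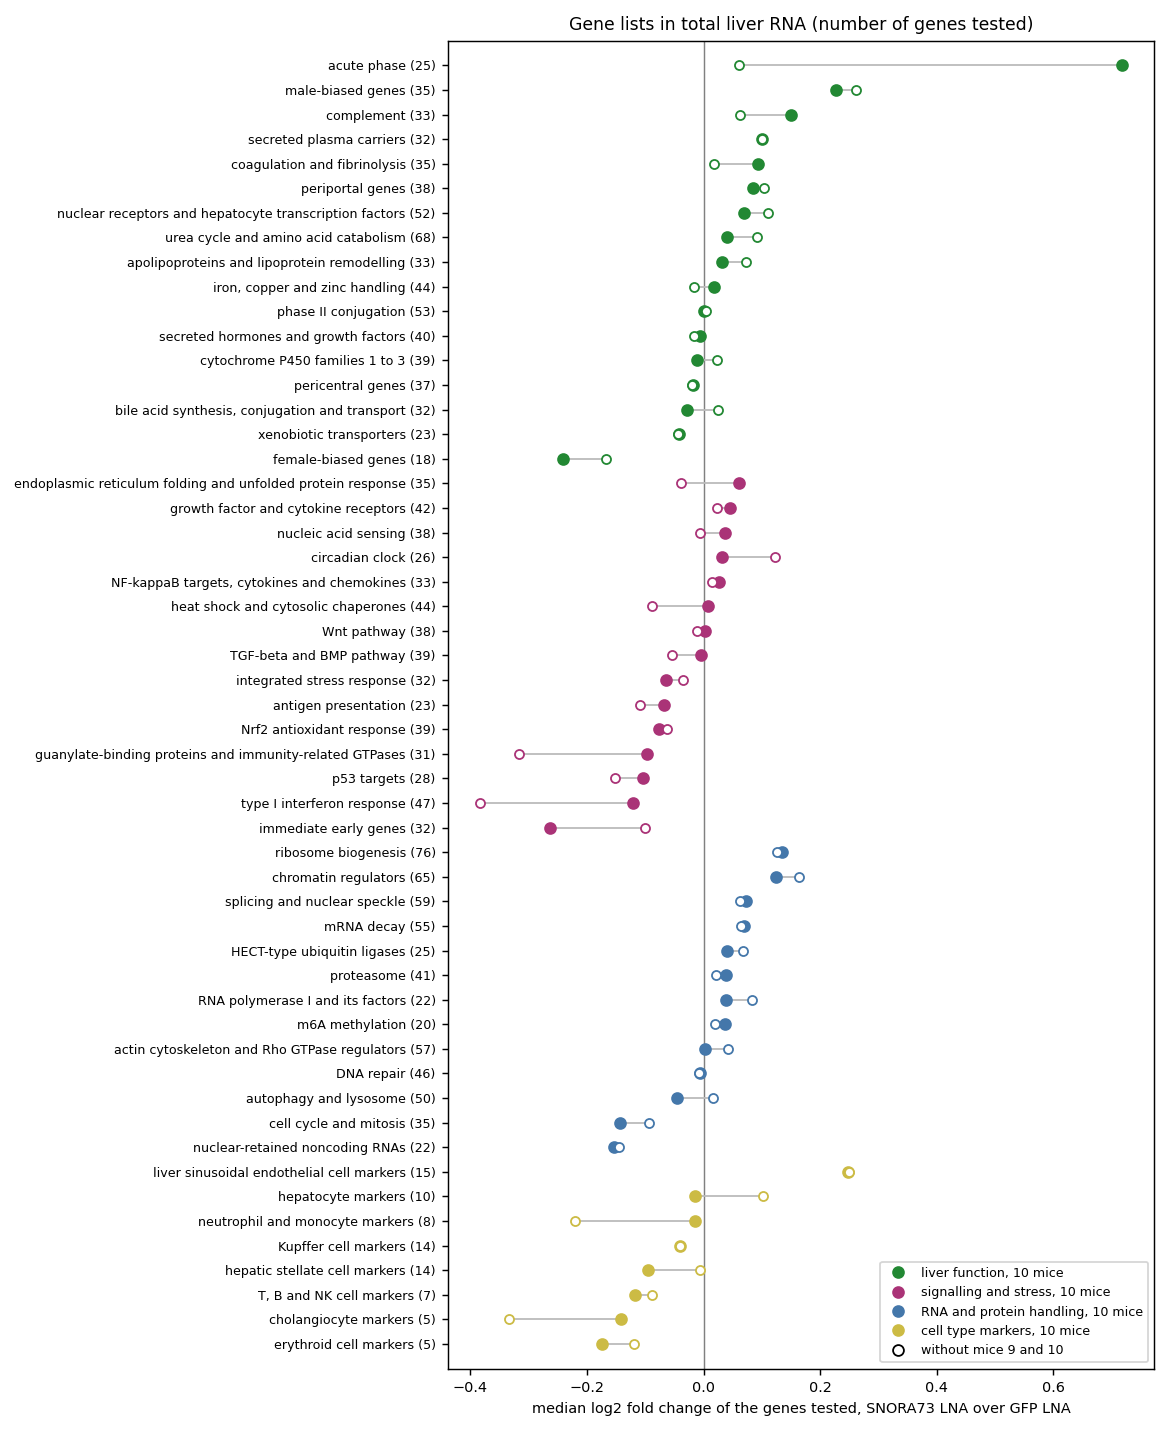
Median log2 fold change of each list with at least 5 genes tested, over 10 mice (filled) and without mice 9 and 10 (open), with the number of genes in brackets. Acute phase genes moved from 0.72 to 0.06 when the 2 mice were left out, type I interferon genes from −0.12 to −0.38, and sinusoidal endothelial markers stayed at 0.25.

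Sinusoidal endothelial markers stood higher. Of 15 genes tested, 1 passed the FDR (Stab2), 14 had a log2 fold change above 0, and 6 (40.0%) reached an unadjusted p under 0.05 upward and 0 downward. The median was 0.25 in both sets of mice. Library totals lowered this median to 0.10, when all genes stood at −0.14. The mean log2 CPM of the list did not overlap between groups, from −0.22 to 0.04 with GFP LNA and 0.10 to 0.22 with SNORA73 LNA relative to the mean of the 10 mice. Gpr182, an atypical chemokine receptor of these cells, had 14.2, 11.9, 11.9, 12.7 and 14.0 CPM against 20.3, 17.5, 19.2, 16.7 and 18.0 CPM (log2 fold change 0.51, edgeR adjusted p = 0.184, and 0.0428 without mice 9 and 10). Those groups did not overlap. The receptors for vascular growth factors Kdr and Flt4 had 0.26 and 0.38, and Lyve1, a hyaluronan receptor, had −0.10 and was the 1 marker below 0.

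Thbd, thrombomodulin of endothelium, went the other way, with 5.18, 4.20, 3.66, 4.74 and 4.27 CPM in the controls and 1.70, 2.32, 3.22, 2.36 and 3.19 CPM in the treated livers. The groups did not overlap, at a log2 fold change of −0.78 (edgeR adjusted p = 0.25). Markers of other cell types gave 0 genes past the FDR. Summed CPM of hepatocyte markers ranged from 46865 to 74346 with GFP LNA and 46737 to 75264 with SNORA73 LNA, of Kupffer cell markers from 315 to 443 and 290 to 451, and of hepatic stellate cell markers from 327 to 440.1 and 285 to 403. These ranges overlapped.

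The acute phase response is the rise of plasma proteins that hepatocytes make when cytokines such as interleukin-6 reach them. All 25 genes tested had a log2 fold change above 0, with a median of 0.72, and 7 (28.0%) were higher at an unadjusted p under 0.05, but 0 passed the FDR. Saa2, a serum amyloid A of high-density lipoprotein, had 13.8, 8.85, 23.5, 35.6 and 70.5 CPM in the controls and 53.9, 23.1, 8387, 249 and 22.8 CPM in the treated livers. Mouse 10 was highest, mouse 11 also lay above every control, and the other 3 treated livers overlapped the controls. Saa3 was at 529 CPM in mouse 10 and 3.58 to 19.6 in the other 9 livers. Acute phase transcripts made up 6.95% of the counts of mouse 10 against 2.48 to 2.74% in the other SNORA73 LNA livers and 2.37 to 3.18% with GFP LNA. Without mice 9 and 10 the median was 0.06, with 15 of 25 genes above 0, beside 51.3% of all genes, and 6 (24.0%) reached an unadjusted p under 0.05 upward and 0 downward, beside 7.04% and 5.05% of all genes.

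**Figure D3:**
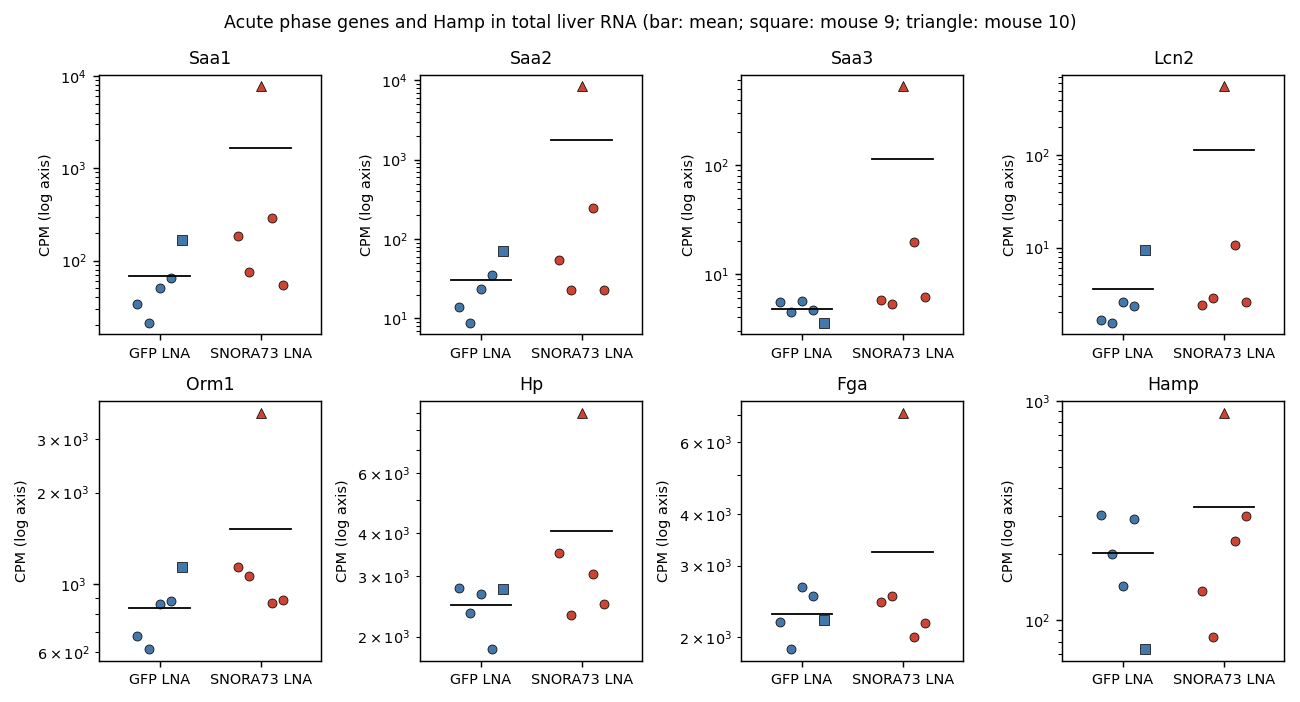
CPM on a log axis for 7 acute phase genes and Hamp, the iron hormone hepcidin, 1 point per mouse, the bar being the mean of 5 mice. Mouse 10 (triangle) is the highest liver in every panel, at 7705 CPM for Saa1 against 21.3 to 292 in the other livers. The genes shown besides Saa2, Saa3 and Hamp were chosen after their values were seen.

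Ribosome biogenesis factors assemble the subunits in the nucleolus, where box H/ACA snoRNAs also act. Of 76 genes tested, 64 had a log2 fold change above 0 and 17 (22.4%) reached an unadjusted p under 0.05 upward and 0 downward, with 0 past the FDR. The median was 0.14 over the 10 mice and 0.13 without mice 9 and 10, and −0.01 by library totals, where all genes stood at −0.14. The list means of the groups overlapped through mouse 12 (−0.06), against −0.13 to −0.01 with GFP LNA.

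Mdn1, the motor protein that strips factors from precursors of the large subunit, had 4.89, 5.28, 4.92, 6.72 and 6.04 CPM in the controls and 9.43, 9.13, 11.3, 11.9 and 6.77 CPM in the treated livers. Mouse 12 lay just above the highest control, mouse 8, and the log2 fold change was 0.80 (edgeR adjusted p = 0.199). Utp11, of the small subunit processome, had 13.6, 12.8, 14.0, 13.3 and 15.5 CPM against 21.3, 18.3, 20.1, 24.9 and 16.9 CPM, without overlap (log2 fold change 0.55, edgeR adjusted p = 0.215). Pes1, of the complex that processes large subunit RNA, stood at a log2 fold change of 0.37 (adjusted p = 0.25), and nucleolin, Ncl, 0.43 (adjusted p = 0.409). Polr1a, the largest subunit of RNA polymerase I, had 0.47 (adjusted p = 0.378), and the 22 tested genes of that list had a median of 0.04.

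The promoters of Mdn1 and Pes1 are printed because both hold CACGTG, the E-box letters bound by Myc and related factors, which are known to act on ribosome biogenesis genes. The letters are the same on both strands and are in capitals. RefSeq promoters were given for 64 of the list's genes (71 windows), and 16 windows (22.5%) held the motif, against 2349 of 32851 windows (7.15%) of all genes. That background takes in genes not detected in these livers, and no set of expressed genes was matched to the list. The motif was picked, after several others had been looked at, with these values known, and no test was made. The 15 genes with it had a median log2 fold change of 0.19, 5 of them at an unadjusted p under 0.05, and the 49 without it had 0.13 and 9. A match is only a match of letters.
Mdn1 promoter, GRCm38.p6, plus strand, chr4:32656869-32657168: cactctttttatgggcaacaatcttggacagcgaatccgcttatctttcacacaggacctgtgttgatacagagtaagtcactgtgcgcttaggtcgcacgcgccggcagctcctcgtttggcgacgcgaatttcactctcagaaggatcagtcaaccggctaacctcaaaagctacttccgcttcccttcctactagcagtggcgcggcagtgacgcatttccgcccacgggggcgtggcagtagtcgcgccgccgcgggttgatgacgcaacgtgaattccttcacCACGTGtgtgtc
Pes1 promoter, GRCm38.p6, plus strand, chr11:3963725-3964024: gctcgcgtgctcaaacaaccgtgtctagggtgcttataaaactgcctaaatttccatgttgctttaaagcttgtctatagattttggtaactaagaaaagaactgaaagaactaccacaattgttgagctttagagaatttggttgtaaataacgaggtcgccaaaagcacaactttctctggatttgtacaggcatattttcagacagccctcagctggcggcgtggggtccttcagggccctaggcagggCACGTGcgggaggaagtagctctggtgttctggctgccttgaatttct

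**Figure D4:**
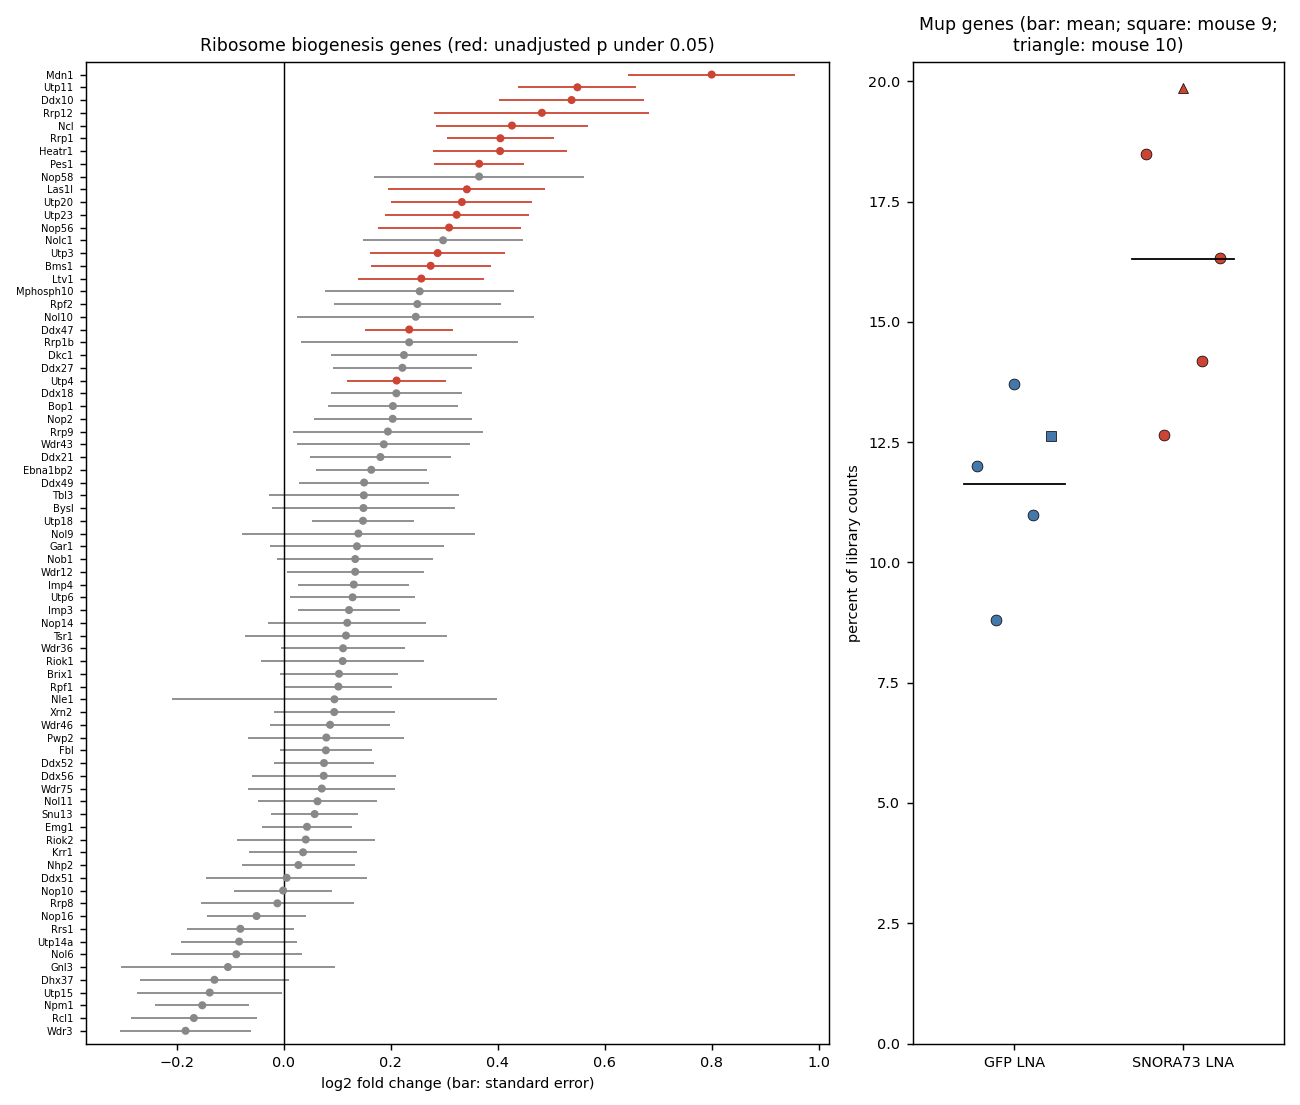
Left, log2 fold change of 76 ribosome biogenesis genes with standard errors, red where the unadjusted p is under 0.05; right, the share of library counts in major urinary protein (Mup) genes per mouse with group means. The 17 red genes all lie above 0, and the Mup share ranges from 8.80 to 13.7% with GFP LNA and from 12.6 to 19.9% with SNORA73 LNA.

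Major urinary proteins are secreted carriers of pheromones that male mice make under pulsed growth hormone. Together the 22 Mup genes held 11.6 ± 1.86% of counts with GFP LNA (SD, n = 5) and 16.3 ± 2.97% with SNORA73 LNA, a difference of 4.67 percentage points (two-sided exact permutation test, p = 0.0159, and 0.0370 adjusted over 7 library measures). The ranges overlapped at 12.6 to 13.7%. The Mup share was not among the library measures first planned, so its p-value is descriptive only. Mup7 had 21693, 10476, 32335, 19863 and 20675 CPM in the controls and 51979, 33722, 59721, 35944 and 51206 CPM in the treated livers, and Mup12 did not overlap either. The log2 fold change was 1.15 for Mup7 and 1.05 for Mup12 (edgeR adjusted p = 0.245 for both). Mup copies are near-identical, and reads shared among them make values of single genes uncertain.

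Of 35 male-biased genes tested, 25 had a log2 fold change above 0 and 9 (25.7%) were higher at an unadjusted p under 0.05, with 0 past the FDR. Of these 9, 8 were Mup genes, and the other was Serpina1e, an alpha-1-antitrypsin (0.83, edgeR adjusted p = 0.458). The median of the list was 0.23, and 0.08 by library totals, where all genes stood at −0.14. With Mup genes left out of both the library totals and the list, the median of the remaining members was −0.01. All genes stood at −0.06 there. The 18 female-biased genes had a median of −0.24, with 4 (22.2%) lower and 1 higher, the latter being Cyp17a1. Of the 4 lower, Cyp2c69, a cytochrome P450, had 1.82 ± 1.10 CPM in controls and 0.825 ± 0.300 in treated livers (log2 fold change −1.12, edgeR adjusted p = 0.425). Mouse 2, a control, had the lowest male-biased and the highest female-biased mean, and without it the female-biased median was 0.01.

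Coagulation genes lay on both sides of 0, as all genes did. F2, prothrombin, had 817, 805, 840, 741 and 884 CPM in the controls and 1144, 1267, 988, 1087 and 1154 CPM in the treated livers. The groups did not overlap, at a log2 fold change of 0.46 (edgeR adjusted p = 0.215, and 0.0267 without mice 9 and 10). Over the list of 35 genes, 3 (8.57%) reached an unadjusted p under 0.05 upward and 1 (2.86%) downward, and the median was 0.09. Of all genes 4.96% and 3.69% did so. The median was 0.02 without mice 9 and 10, with 6 (17.1%) upward and 1 downward. Among 33 complement genes, 4 were higher and 1 lower. C4b, a component of the classical pathway, had 455 ± 52.9 CPM in controls and 577 ± 69.4 in treated livers (log2 fold change 0.34, edgeR adjusted p = 0.414), and the median of the list was 0.15. Without mice 9 and 10 it was 0.06, with 8 genes (24.2%) higher and 1 lower.

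Drug-metabolizing genes had medians near those of all genes. Among 39 cytochrome P450 genes of families 1 to 3, 2 were higher, 3 were lower and the median was −0.01, and among 53 conjugating enzymes 2 were higher, 3 were lower and the median was 0.00. The P450 list had 4 higher and 2 lower without mice 9 and 10, and the conjugating enzymes 3 higher and 6 lower. Cyp2d22 had 51.2 to 62.3 CPM in controls 1, 2, 3 and 8 and 99.5 in mouse 9, against 63.4 CPM in mouse 10 and up to 127 in the other treated livers (log2 fold change 0.66, edgeR adjusted p = 0.378, and 0.00229 without mice 9 and 10). There mouse 9 lay below every treated liver but mouse 10, and mouse 10 lay above every control but mouse 9. Nnmt, which methylates nicotinamide, had 51.8 ± 9.14 CPM in controls and 113 ± 65.1 in treated livers, with 225 CPM in mouse 10 (log2 fold change 1.12, adjusted p = 0.327, and 0.0417 without mice 9 and 10). Cyp7a1, the rate-limiting enzyme of bile acid synthesis, had 27.5 ± 14.8 and 31.1 ± 13.6 CPM, a difference within the spread. Of 32 bile acid genes 1 was higher, Baat, which joins bile acids to taurine (0.20, adjusted p = 0.544), and 0 lower.

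Among 68 genes of the urea cycle and amino acid catabolism, 6 (8.82%) were higher, 1 was lower and the median was 0.04. In the 8 mice left without mice 9 and 10, 14 (20.6%) were higher, 0 were lower and the median was 0.09. Dmgdh, a dehydrogenase of choline breakdown, had 163, 166, 166, 164 and 161 CPM in the controls and 216, 223, 174, 221 and 216 CPM in the treated livers. The groups did not overlap, with mouse 10 the lowest treated liver, at a log2 fold change of 0.36 (edgeR adjusted p = 0.3, and 0.0396 without mice 9 and 10). Albumin, Alb, had 32665 ± 8240.5 CPM in controls and 30623 ± 7971 in treated livers. Transthyretin, Ttr, had 6161 ± 1459 and 5164 ± 823 CPM (log2 fold change −0.25 ± 0.18, SE, edgeR adjusted p = 0.755). Without mice 9 and 10 Ttr stood at −0.30 (edgeR adjusted p = 0.332). Over the 10 mice its groups overlapped. Cps1, the first enzyme of the urea cycle, Glul of the pericentral zone, Cyp2e1 and Igf1 had log2 fold changes of −0.02, 0.07, −0.08 and 0.09, all within 1 standard error of 0.

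Stress and signalling lists had medians on both sides of 0. Immediate early genes had a median of −0.26, with 6 of 32 above 0 and 3 lower at an unadjusted p under 0.05, among them Klf4 (−0.56, edgeR adjusted p = 0.394). The median was −0.10 without mice 9 and 10, with 1 gene lower. The list mean, in log2 CPM from the 10-mouse mean, was highest in controls 1 (0.67) and 9 (0.63). In the other controls it was −0.38 to −0.08, within the treated range of −0.39 to 0.25. Of 28 p53 targets 3 were lower, led by the kinase gene Plk3, with 15.0, 6.53, 18.6, 8.59 and 14.0 CPM against 4.10, 5.64, 4.38, 7.07 and 4.99 CPM (log2 fold change −1.26, edgeR adjusted p = 0.215). Mouse 2, a control, overlapped the treated livers. Of 39 Nrf2 antioxidant genes 4 (10.3%) were lower and 0 higher. Gclc, the rate-limiting enzyme of glutathione synthesis, had 251 ± 51.1 CPM in controls and 171 ± 23.8 in treated livers (log2 fold change −0.55, adjusted p = 0.357, and 0.0389 without mice 9 and 10).

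The values of interferon genes depended on mice 9 and 10. Of 47 genes tested 1 (2.13%) was lower over the 10 mice, Usp18, which trims ISG15 from proteins (−0.81, edgeR adjusted p = 0.378). Without mice 9 and 10, 20 of 46 tested (43.5%) were lower at an unadjusted p under 0.05, and 3 passed the FDR: Ifit1 (−0.72), Isg15 (−0.74) and Zbp1 (−0.82). The list mean of mouse 10 was the highest of the 10 livers, at 0.53 from the mean of all. Of 30 guanylate-binding proteins and immunity-related GTPases tested without these mice, 11 (36.7%) were lower and 0 higher at an unadjusted p under 0.05. Gbp6, Gbp10 and Irgm2 passed the FDR, all lower. Of all genes without these mice, 5.05% were lower at an unadjusted p under 0.05 and 0.161% at the FDR. The integrated stress response, the endoplasmic reticulum response, antigen presentation and the proteasome had 0 genes at an unadjusted p under 0.05 over the 10 mice.

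**Figure D5:**
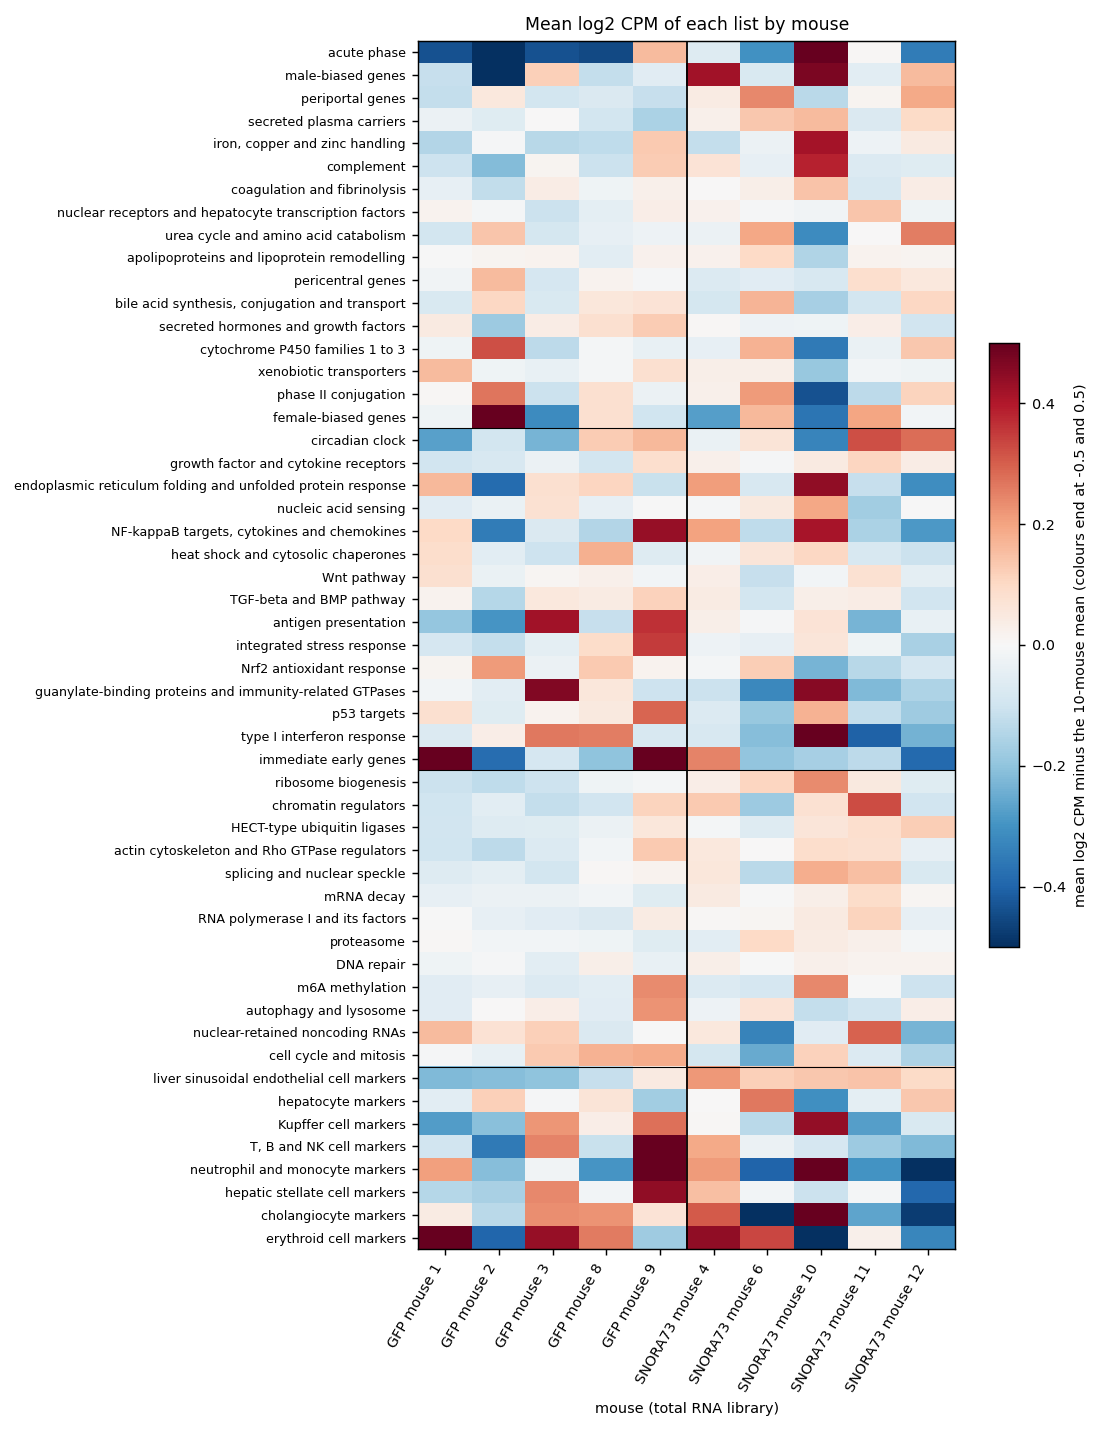
Mean log2 CPM of each list in each mouse, as the difference from the mean of the 10 mice, with colours ending at −0.5 and 0.5 and the line parting GFP LNA (left) from SNORA73 LNA (right). Mouse 10 is the darkest red for acute phase genes, at 2.58. The rows of sinusoidal endothelial markers and mRNA decay do not overlap between the groups, and all other rows do. For mRNA decay the gap is narrow, with the highest control at −0.012 and the lowest treated liver at −0.0020.

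Chromatin regulators, mRNA decay genes and splicing genes had medians above 0 after TMM that were below 0 by library totals. Among 65 chromatin regulators 9 (13.8%) were higher, 2 were lower and the median was 0.12, or −0.02 by library totals. With 1 mouse left out the median ran from 0.05, without mouse 11, to 0.18. The list means of the groups overlapped, from −0.18 (mouse 6) to 0.33 (mouse 11) in treated livers against −0.12 to 0.11 with GFP LNA. Smarca4, the ATPase of the SWI/SNF complex, had 37.5, 31.6, 37.0, 34.6 and 49.9 CPM against 62.0, 49.5, 64.6, 68.7 and 48.3 CPM (log2 fold change 0.62, edgeR adjusted p = 0.245, and 0.0345 without mice 9 and 10). Mouse 9 overlapped the treated livers. Of 55 mRNA decay genes 8 (14.5%) were higher and 1 lower, led by Exosc4 of the RNA exosome (0.32, adjusted p = 0.39), and of 59 splicing genes 5 (8.47%) were higher and 0 lower. The medians, 0.07 for both lists, were −0.07 by library totals, where all genes stood at −0.14.

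The nuclear noncoding RNAs Malat1 and Neat1 had opposite signs. Malat1 had 386, 409, 404, 480.2 and 556 CPM in the controls and 804, 396, 675, 1019 and 532 CPM in the treated livers (log2 fold change 0.62, edgeR adjusted p = 0.443), and Neat1 had −0.68 (adjusted p = 0.502). Both overlapped between groups. Of the 22 nuclear noncoding RNAs tested 1 was higher and 1 lower. The median was −0.15, and without mice 9 and 10 the counts were 1 and 6. Of 35 cell cycle genes 5 (14.3%) were lower and 1 higher. Top2a, a topoisomerase of dividing cells, had 1.34 ± 0.476 CPM in controls and 0.792 ± 0.277 in treated livers (log2 fold change −0.76, adjusted p = 0.522), at levels near the filter. Smad4, the shared partner of TGF-beta and BMP signalling, had 13.5 ± 3.77 and 21.1 ± 3.86 CPM (log2 fold change 0.65, adjusted p = 0.357, and 0.00728 without mice 9 and 10).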

How the data were processed

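Total liver RNA of 10 mice was analysed. The authors deposited an estimated count for each gene and library, made with fastp, bowtie (Bowtie2 in the submitters' processing notes), SAMtools and kallisto on GRCm38, and summed to genes with tximport. Kallisto shares reads among compatible transcripts, so pseudogenes and gene families are uncertain. Estimated counts were rounded. Symbols matched 51903 of 53028 genes, and genes without one held at most 2.51% of counts. Positions and promoters are taken from RefSeq's GRCm38.p6 annotation.

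Where 4 or more libraries exceeded 0.5 CPM, genes entered edgeR 4.0.16 (R 4.3.3), quasi-likelihood, after TMM normalization, with Benjamini-Hochberg adjustment over all of them. Higher meant an FDR under 0.05 with log2 fold change 0.5 or more, lower a log2 fold change under 0 and FDR under 0.05. CPM values are TMM-scaled. Library measures, some of them added to those first planned, had two-sided exact permutation tests, whose smallest p is 0.00794. Alternatives were limma-voom (limma 3.58.1) with and without quality weights, DESeq2 1.42.0, other scalings and filters, and mice left out. The fits were tested on simulated data. Named genes were those called, the targeted locus, up to 2 per list with the smallest unadjusted p under 0.05, the 8 higher and 8 lower with the smallest p and no overlap, and 8 liver genes; others named were chosen after their values were seen. A gene that the rule also picked is not reported here. Members and lists were chosen with earlier results of these data known. Libraries ranged from 20005389 to 42023390 counts, and 3 counts served as floor, covering counting error only. P-values measure spread between these mice. The authors' test results were not used.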

Additional observations from a re-analysis of the deposited data

Results flagged for a closer look

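A liver far from the other 4 of its group was seen in 21 of 304 groups of 5 values (6.91%), where chance flags about 1 in 20. SNORA73 LNA mouse 10 gave 7 of them, GFP LNA mouse 2 gave 6, GFP LNA mouse 9 gave 4, GFP LNA mouse 3 gave 2, and SNORA73 LNA mice 4 and 11 gave 1 each.

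Mouse 10 was high for Pzp, a plasma protease inhibitor, at 3320.4 CPM against 1992 to 2076, and for Saa3, at 529 CPM against 5.26 to 19.6. It was low for Dmgdh, at 174 CPM against 216 to 223. Its share of acute phase counts was 6.95% against 2.48 to 2.74%. The mean log2 CPM of acute phase genes, as the difference from the 10-mouse mean, was 2.58 against −0.35 to 0.01, that of xenobiotic transporters −0.19 against −0.02 to 0.03, and that of guanylate-binding proteins and immunity-related GTPases 0.45 against −0.32 to −0.11.

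GFP LNA mouse 2 was high for Slc40a1, the iron exporter, at 122 CPM against 64.8 to 76.2. On the same difference scale its mean was 0.32 for cytochrome P450 families 1 to 3, 0.14 for urea cycle and amino acid catabolism, −0.18 for secreted hormones and growth factors, −0.75 for male-biased genes and 0.053 for periportal genes, each outside the range of the other 4 controls.

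GFP LNA mouse 9 was high for Herc2, at 16.4 CPM against 3.91 to 5.73, and for Atp6v1b2, at 51.9 against 28.5 to 31.6. Its mean was 0.24 for m6A methylation and 0.11 for chromatin regulators. GFP LNA mouse 3 was high for Epcam, at 0.809 CPM against 0.538 to 0.579, and for guanylate-binding proteins and immunity-related GTPases, at 0.46. SNORA73 LNA mouse 4 was low for Baat, at 217 CPM against 235 to 239, and SNORA73 LNA mouse 11 was high for nuclear receptors and hepatocyte transcription factors, at 0.14. The cause was not tested in any of these.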

How the results depend on the processing

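No paired analysis was possible because the GFP LNA and SNORA73 LNA groups hold different mice and share no replicate number. Over the 10 mice 4 genes were higher and 0 lower. Genes higher numbered 72 without mice 9 and 10, 75 by limma-voom without these mice, 37 by limma-voom with quality weights, 36 by DESeq2, 10 with no filter beyond 1 count, 2 with a CPM above 1 in every library, 2 by library totals and 2 by library totals with Mup genes left out, the last chosen after seeing the data. Genes lower numbered 21, 21, 5, 21 and 3 in the first 5 of these. With 1 mouse left out the counts ran from 1 to 49 higher and from 0 to 10 lower, the highest without mouse 9. At an unadjusted p under 0.05, 654 genes were higher and 487 lower. These became 197 and 1893 by library totals and 341 and 917 with Mup genes left out as well, and 923 were lower with no filter. Limma-voom over all mice and DESeq2's size factors in edgeR stayed within 1.5 times of these counts. The cause was not tested.

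Some named genes changed sign, among them Hamp, at 0.69 over the 10 mice, and others whose log2 fold change was near 0. Without mice 9 and 10 Snhg3 was at −0.10, Cps1 at 0.16, Cyp2e1 at 0.0077 and Hamp at −0.32, and by limma-voom without them at −0.094, 0.16, 0.0066 and −0.42. With quality weights Snhg3 was at −0.079, Cps1 at 0.090 and Hamp at −0.056, and by library totals Snhg3 at −0.056, Glul at −0.081 and Igf1 at −0.056. With 1 mouse left out Snhg3 ran from −0.098 to 0.21, Rcc1 from −0.085 to 0.029, Cps1 from −0.11 to 0.075, Glul from −0.072 to 0.18, Cyp7a1 from −0.055 to 0.51 and Hamp from −0.11 to 0.94. Low-count genes near 0.5 CPM are the least precise.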
